A study of Mus musculus with 8 samples.

Results

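The OAS family, the 2-5A synthetases and their relatives, was followed across mouse islets with and without a STING agonist. Its members were the 8 rows of the count tables whose Ensembl identifiers map to Oas1a, Oas1b, Oas1c, Oas1g, Oas2, Oas3, Oasl1 and Oasl2, of 54532 rows in all. All 8 passed the filter on low counts that left 17055 genes for testing.

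OAS enzymes bind double-stranded RNA and join ATP into short 2-5A chains. These chains act as a second messenger that sets off breakdown of RNA in the infected cell. The genes are classical targets of interferon, and in a beta cell the pathway is known mainly from enterovirus infection and interferon exposure. The OAS fold is shared with cGAS, the DNA sensor that makes the natural ligand of STING.

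Islets, the small endocrine organs within the pancreas, came from wild-type and Sting-/- mice 25 to 30 weeks old and rested overnight in culture after being picked by hand. Both genotypes received either the solvent DMSO or DMXAA, a small molecule that binds mouse STING, at 50 µg/mL for 3 h. Each of the 4 groups held 2 libraries of poly(A) RNA, with total counts from 15624020 to 19601850. The strain, the deleted exons and the number of mice behind each library are not stated in the labels, so the spread behind each p-value is that between libraries and may be technical. With DMSO, Sting1 had 39 and 41 counts in the wild type and 48 and 19 counts in the other genotype, so its count did not set the labels apart, and the latter libraries are called knockout-labelled. The islet identity held in every library: the 9 endocrine markers, insulin genes included, summed to between 184124 and 363548 CPM (each library's counts scaled to a common size), and none was at 0.

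All 8 members lie on chromosome 5 of the mouse build mm10, in 2 groups 5.79 Mb apart. Oasl2 (114896936 to 114912234, plus strand) and Oasl1 (114923240 to 114937915, plus strand) are neighbours within 41.0 kb. The larger group spans 191.3 kb. It holds Oas2 (120730333 to 120749853), Oas3 (120753098 to 120777661), Oas1c (120800194 to 120812514), Oas1g (120876142 to 120887613) and Oas1a (120896256 to 120907521) on the minus strand. Oas1b (120812635 to 120824163) runs on the plus strand and starts 121 bp from the start of Oas1c. The genes Oas1d, Oas1e, Oas1f and Oas1h of the same group were almost silent and are given further on.

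The start regions of the genes are shown because interferon acts on this family through a short GAAA-repeat element, the interferon-stimulated response element (ISRE). RefSeq windows of 300 bases, from 250 before the gene start to 50 after it, matched 6 of the 8 members. The 120 bases just before each start follow on the gene's own strand, in build GRCm38.p6, with every match to GAAANNGAAA on either strand in capitals.
Oas1a, chr5:120907526-120907645, minus strand: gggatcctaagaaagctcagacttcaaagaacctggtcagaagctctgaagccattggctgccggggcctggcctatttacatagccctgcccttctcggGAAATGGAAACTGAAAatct
Oas1g, chr5:120887614-120887733, minus strand: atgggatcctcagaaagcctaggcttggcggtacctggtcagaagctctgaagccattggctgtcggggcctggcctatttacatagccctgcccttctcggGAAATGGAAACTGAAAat
Oas1c, chr5:120812515-120812634, minus strand: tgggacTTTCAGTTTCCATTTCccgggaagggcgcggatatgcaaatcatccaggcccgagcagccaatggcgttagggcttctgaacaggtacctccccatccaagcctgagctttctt
Oas3, chr5:120777660-120777779, minus strand: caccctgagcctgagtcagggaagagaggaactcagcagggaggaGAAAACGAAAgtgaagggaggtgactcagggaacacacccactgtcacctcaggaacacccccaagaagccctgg
Oasl1, chr5:114923120-114923239, plus strand: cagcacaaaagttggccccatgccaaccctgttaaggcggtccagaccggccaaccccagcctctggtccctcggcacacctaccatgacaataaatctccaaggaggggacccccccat
Oasl2, chr5:114896814-114896933, plus strand: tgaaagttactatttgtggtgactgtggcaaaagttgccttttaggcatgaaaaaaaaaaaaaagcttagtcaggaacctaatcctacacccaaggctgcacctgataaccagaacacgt

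GAAANNGAAA was present in 4 of the 6 member windows, those of Oas1a, Oas1g, Oas1c and Oas3, and in 3.44% of all 32851 windows of that length. In the Oas1a, Oas1g and Oas1c windows a pair of overlapping matches made up the same 16 bases, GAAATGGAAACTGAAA. This run was chosen after the windows had been read. It stood in 7 of the 32851 windows (0.0213%), of which 3 were those of Oas1a, Oas1c and Oas1g and the other 4 belonged to Apol9a and Apol9b on chromosome 15. In Oas1a it covered bases -20 to -5 from the RefSeq start and in Oas1g bases -18 to -3, and the whole windows of these 2 genes aligned with 85.3% identity. In the Oas1c window it lay on the opposite strand at bases -114 to -99, which is 22 to 7 bases before the annotated start of Oas1b and in that gene's reading direction. Neither Oasl1 nor Oasl2 had a match in its window, which says only that these letters are not in that window. TTCNNNGAA, the core of the gamma-activated sequence, which reads alike on both strands, was in 1 of the 6 windows, that of Oas1a, and in 8.30% of all windows.

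Which OAS genes answered DMXAA in islets with STING was the first comparison. In wild-type islets 6 of the 8 members rose and none fell. Of all genes tested, 1.11% were called higher. The median log2 change of the 8 members was 1.68, against 0.00 over all genes tested. The groups did not overlap for 7 members, all higher with DMXAA, as was so for 22.5% of all genes tested. Levels below are in CPM scaled by library, and adjusted p-values are from edgeR's quasi-likelihood test with Benjamini-Hochberg adjustment over all genes tested.

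**Figure D1:**
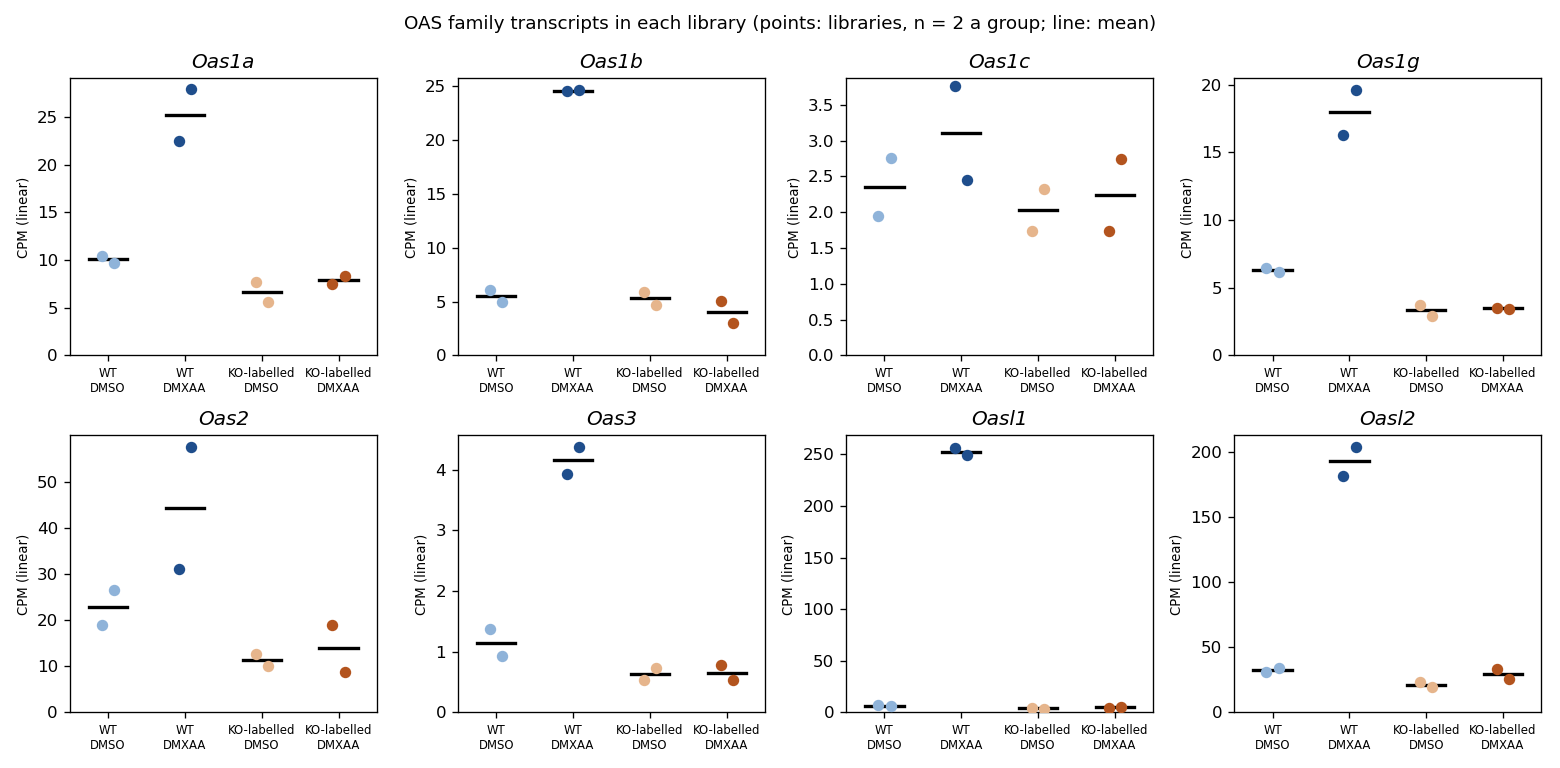
Level of each OAS member in CPM on a linear axis that starts at 0, with 1 point per library (n = 2 in each group) and a line at the group mean; WT is wild type and KO-labelled is knockout-labelled. The wild-type DMXAA libraries stand above all others for every member except Oas1c; Oasl1 is at 256 and 249 CPM there and between 3.34 and 6.89 CPM in the other 6 libraries.

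The OAS-like genes moved most. Oasl1 encodes a relative without synthetase activity that, in mice, blocks translation of the Irf7 mRNA and so restrains interferon production. It was at 6.89 and 6.05 CPM with DMSO and at 256 and 249 CPM with DMXAA. It rose 39.0-fold (log2 fold change 5.28, SE 0.19, adjusted p = 5.16e-09). The DMXAA libraries differed from each other far less than from the DMSO libraries. Oasl2, which in the mouse has kept synthetase activity, was at 31.0 and 34.3 CPM with DMSO and at 182 and 203 CPM with DMXAA. It rose 5.89-fold (log2 fold change 2.56, SE 0.17, adjusted p = 1.76e-06), with no overlap between the groups.

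Among the Oas1 genes, Oas1a and Oas1g encode active synthetases. Oas1a was at 10.4 and 9.74 CPM with DMSO and at 22.4 and 27.9 CPM with DMXAA, a log2 rise of 1.32 (SE 0.21, adjusted p = 0.00339). Oas1g went from 6.47 and 6.15 CPM to 16.3 and 19.6 CPM, a log2 rise of 1.51 (SE 0.22, adjusted p = 0.00182). For both genes each treated library was above each control library. Leaving out wild-type DMXAA replicate 2 ended the call for Oas1a (adjusted p = 0.0771). The annotated transcripts of the 2 genes share 563 stretches of 150 bases, the read length, which are 32.4% of those in Oas1a and 24.1% of those in Oas1g, so reads may have been split between them. Their summed row, an alternative chosen after seeing the data, rose by 1.40 on the log2 scale (adjusted p = 0.000868).

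Oas1b is the mouse flavivirus resistance gene, which many laboratory strains carry in a truncated form and which the annotation lists as a polymorphic pseudogene. It was at 6.10 and 4.92 CPM with DMSO and at 24.5 and 24.6 CPM with DMXAA. Its log2 rise of 2.16 (SE 0.25, adjusted p = 0.000204) was the third largest of the 8. The counts do not show which allele these mice carried. Oas1c, whose start faces that of Oas1b, was at 1.95 and 2.75 CPM with DMSO and at 3.77 and 2.45 CPM with DMXAA. The Oas1c groups overlapped, and its log2 change of 0.39 (SE 0.37, adjusted p = 0.685) did not pass the test. Some 227 bases of its exons overlap the antisense gene Gm43069, and whether the counting used strand is not known.

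Oas2 and Oas3 encode the larger synthetases, built from repeated OAS units. Oas2 was at 19.0 and 26.5 CPM with DMSO and at 31.1 and 57.6 CPM with DMXAA. The groups did not overlap, but the treated libraries were far apart, and the log2 difference of 0.96 (SE 0.39, adjusted p = 0.403) did not pass the test. Oas3 was at 1.37 and 0.935 CPM with DMSO, from 26 and 19 counts, and at 3.93 and 4.37 CPM with DMXAA, from 73 and 84 counts. Its rise of 1.85 on the log2 scale (SE 0.36, adjusted p = 0.0174) passed. That call was lost when any 1 of the 4 wild-type libraries was left out: adjusted p = 0.0666 without DMSO replicate 1, 0.0564 without DMSO replicate 2, 0.0839 without DMXAA replicate 1 and 0.155 without DMXAA replicate 2.

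Levels were set between genes per kilobase of exon. In wild-type DMSO islets Oas1a led with 5.35 ± 0.253 CPM per kb (mean ± SD, n = 2), beside Oasl2 with 5.13 ± 0.367 and Oas2 with 5.11 ± 1.19 CPM per kb. These 3 differed by less than their spread. Oas1b with 2.77 ± 0.420, Oas1g with 2.70 ± 0.0968 and Oasl1 with 2.48 ± 0.228 CPM per kb formed a second tier, also within their spread. Oas1c with 0.977 ± 0.238 and Oas3 with 0.163 ± 0.0433 CPM per kb were lowest.

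DMXAA reordered the wild-type levels. Oasl1 went to the top with 96.7 ± 1.83 CPM per kb, followed by Oasl2 with 30.2 ± 2.40 CPM per kb. Oas1a with 13.4 ± 2.06, Oas1b with 12.3 ± 0.0424, Oas2 with 9.96 ± 4.20 and Oas1g with 7.67 ± 1.02 CPM per kb came next, and in this run each differed from its neighbour by less than the larger SD of the pair. Oas1c with 1.29 ± 0.389 and Oas3 with 0.587 ± 0.0441 CPM per kb stayed lowest. With the longest annotated transcript as the length, Oasl2 was the highest member in wild-type DMSO islets, at 10.5 CPM per kb, and Oasl1 remained the highest with DMXAA, at 116 CPM per kb.

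In wild-type islets the 8 members summed to 83.2 and 91.4 CPM with DMSO and to 539 and 589 CPM with DMXAA, a ratio of means of 6.46. Per kilobase, Oasl1 made up 10.1 ± 1.23% of the family's transcripts with DMSO and 56.3 ± 3.53% with DMXAA. These shares use the union of exons and move with the length chosen. With the longest transcript, Oasl1 was at 116 and Oasl2 at 61.7 CPM per kb in wild-type DMXAA islets, against 96.7 and 30.2 here. The share of Oas1a was 21.7 ± 1.69% with DMSO and 7.75 ± 0.858% with DMXAA, although its own level rose. In knockout-labelled islets Oasl1 made up 9.36 ± 0.460% with DMSO and 10.5 ± 2.50% with DMXAA, within the spread of the replicates.

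**Figure D2:**
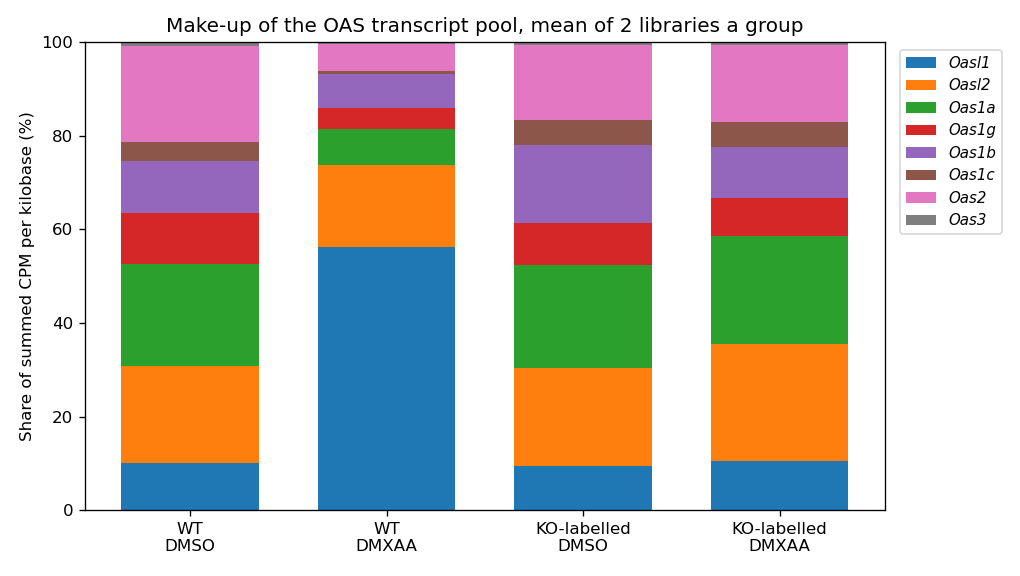
Share of each member in the family's summed CPM per kilobase of exon, in percent, as the mean of the 2 libraries of each group. Oasl1 takes 56.3% of the wild-type DMXAA column and between 9.36% and 10.5% of the other 3.

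In knockout-labelled islets none of the 8 members was called, against 0.375% of all genes tested in either direction. At an unadjusted p under 0.05 there was 1, Oasl2, against 7.30% of all genes tested, and neither DESeq2 nor limma-voom called any. Oasl1 was at 4.47 and 3.34 CPM with DMSO and at 4.55 and 5.33 CPM with DMXAA (log2 difference 0.34, SE 0.21, adjusted p = 0.812). Oasl2 was at 23.7 and 19.1 CPM with DMSO and at 33.1 and 25.6 CPM with DMXAA (log2 difference 0.46, SE 0.17, adjusted p = 0.549). For these 2 genes the treated libraries lay just above the controls, and for the other 6 the groups overlapped. A higher group without overlap was seen for 18.1% of all genes tested.

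The other 6 members did not pass either. Oas1a was at 7.67 and 5.61 CPM with DMSO and at 7.46 and 8.31 CPM with DMXAA in knockout-labelled islets, and Oas1g at 3.73 and 2.94 against 3.49 and 3.45 CPM. Oas1b was at 5.87 and 4.70 CPM with DMSO and at 5.08 and 3.04 CPM with DMXAA. In each of these 3 genes the groups overlapped. Oas1c was at 1.73 and 2.32 against 1.74 and 2.75 CPM, and Oas3 at 0.533 and 0.736 against 0.775 and 0.527 CPM. Oas2 was at 12.7 and 9.97 CPM with DMSO and at 18.9 and 8.84 CPM with DMXAA, the widest replicate gap of the 8. The log2 differences of the 8 ran from -0.36 for Oas1b to 0.46 for Oasl2, with a median of 0.18.

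The difference between the DMXAA effects was tested as an interaction. Of all genes tested, 0.528% had a lower effect in the knockout-labelled islets, and 3 of the 8 members were among them. The effect was lower by 4.94 on the log2 scale for Oasl1 (SE 0.28, adjusted p = 1.85e-06), by 2.51 for Oas1b (SE 0.37, adjusted p = 0.00349) and by 2.10 for Oasl2 (SE 0.24, adjusted p = 0.000526). All 8 values were negative, with a median of -1.63. The remaining 5 did not pass: -1.07 for Oas1a (SE 0.31, adjusted p = 0.194), -1.44 for Oas1g (SE 0.36, adjusted p = 0.0849), -1.81 for Oas3 (SE 0.71, adjusted p = 0.440), -0.66 for Oas2 (SE 0.57, adjusted p = 0.799) and -0.28 for Oas1c (SE 0.56, adjusted p = 0.927). DESeq2 also called Oas1g. An effect called in wild-type islets alone is thus not shown to differ by genotype label for Oas1a, Oas1g and Oas3.

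Without the agonist the knockout-labelled islets held less OAS mRNA by value, yet no member passed the test. Of all genes tested, 0.223% were called in either direction. Oas1a, Oas1g, Oas2, Oasl1 and Oasl2 had an unadjusted p under 0.05, as did 12.3% of all genes tested, and neither DESeq2 nor limma-voom called any of the 8. All 8 log2 differences were negative, with a median of -0.67, from -0.06 for Oas1b (SE 0.27, adjusted p = 0.936) to -1.01 for Oas2 (SE 0.42, adjusted p = 0.389). Both wild-type libraries were above both knockout-labelled libraries for 6 members, as was so for 22.4% of all genes tested. The family summed to 54.6 ± 8.25 CPM in knockout-labelled DMSO islets, against 87.3 ± 5.76 CPM in wild-type DMSO islets.

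Under DMXAA 6 members were lower in the knockout-labelled islets, against 1.37% of all genes tested. Oasl1 was lower by 51.2-fold (log2 difference -5.68, SE 0.19, adjusted p = 2.97e-09) and Oasl2 by 6.56-fold (log2 difference -2.71, SE 0.18, adjusted p = 1.31e-06). Oas3 differed by -2.64 (SE 0.41, adjusted p = 0.00223), Oas1b by -2.58 (SE 0.26, adjusted p = 5.10e-05), Oas1g by -2.37 (SE 0.24, adjusted p = 5.40e-05) and Oas1a by -1.68 (SE 0.21, adjusted p = 0.000483). Oas2 differed by -1.66 (SE 0.40, adjusted p = 0.100) and Oas1c by -0.48 (SE 0.38, adjusted p = 0.638), and neither passed. DESeq2 called Oas2 as well. It was also called without wild-type DMXAA replicate 1 and without knockout-labelled DMXAA replicate 1, with adjusted p-values of 0.0152 to 0.330 over the leave-one-out fits. These comparisons share libraries with the treatment comparisons and are no independent evidence of them.

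**Figure D3:**
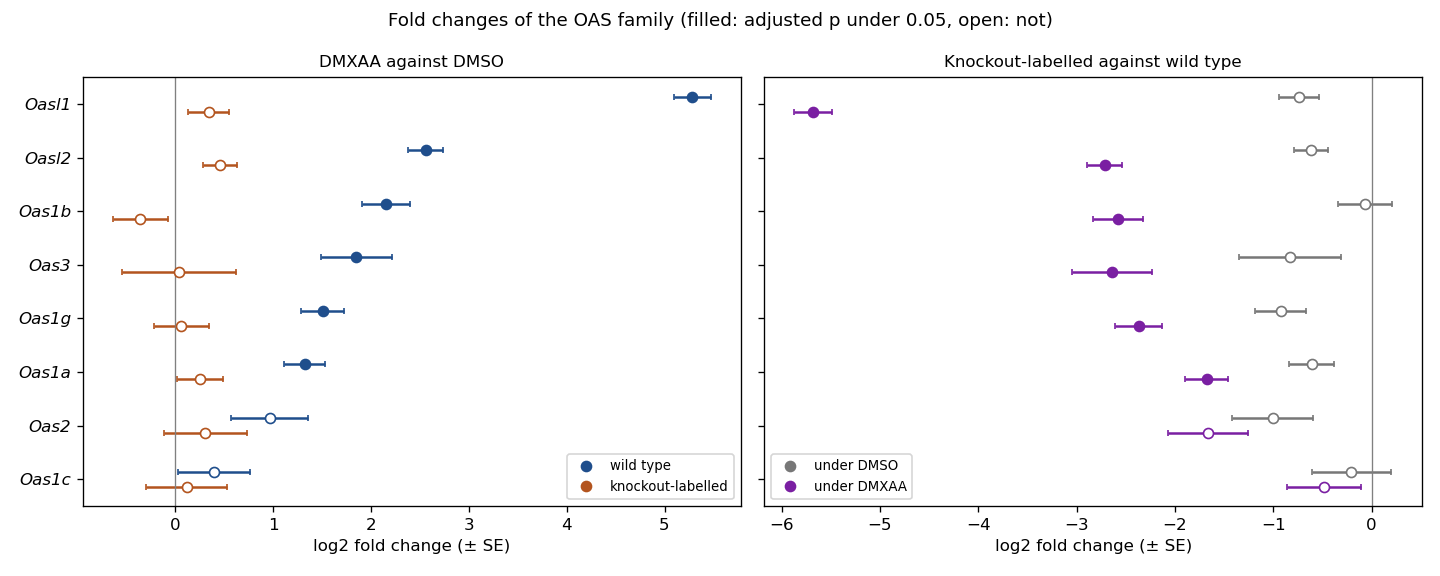
Log2 fold changes of the 8 members with their SE, ordered by the wild-type DMXAA effect: DMXAA against DMSO in each genotype (left) and knockout-labelled against wild type under each treatment (right). Filled points passed an adjusted p of 0.05 and open points did not; 6 members are filled in wild type and none in the knockout-labelled islets.

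The other 4 Oas1 genes were hardly read. Oas1f had no count in any library, which allows up to 3 counts in each. Oas1d had at most 1 count and Oas1e at most 4 counts in a library. Oas1h, the one of these that was tested, went from 3 and 3 counts to 22 and 10 with DMXAA in the wild type. In knockout-labelled islets it had 3 and 3 counts with DMSO, then 0 and 2 with DMXAA. Its treated wild-type libraries stood above the rest, but the log2 difference of 2.42 (SE 0.82, adjusted p = 0.261) did not pass.

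Among genes that remove 2-5A, Pde12 and Akap7 encode enzymes that degrade it, and neither was called in wild type. Pde12 was at 25.3 and 22.3 CPM with DMSO and at 19.2 and 19.9 CPM with DMXAA. Its treated libraries were below the controls, but the log2 difference of -0.29 (SE 0.17, adjusted p = 0.506) did not pass. The same was seen in knockout-labelled islets, where Pde12 was at 25.7 and 29.3 CPM with DMSO. With DMXAA it was at 21.3 and 23.6 CPM there and was not called either.

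Genes of double-stranded RNA sensing beside OAS were read from a list of 8, which includes the adaptor gene Mavs. Of these 8, 4 rose in wild-type islets, against 1.11% of all genes tested. Ifih1 (MDA5), which detects long double-stranded RNA, rose by 2.36 on the log2 scale (SE 0.17, adjusted p = 3.44e-06). Dhx58 (LGP2), its cofactor, rose by 1.64 (SE 0.19, adjusted p = 0.000255), the endosomal sensor Tlr3 by 1.19 (SE 0.23, adjusted p = 0.0169) and Ddx58 (RIG-I) by 0.85 (SE 0.16, adjusted p = 0.0128). The call for Ddx58 was lost without either wild-type DMXAA library, at adjusted p-values of up to 0.185. That for Tlr3 was lost without either of them or without wild-type DMSO replicate 1, also at up to 0.185. The kinase gene Eif2ak2 (PKR) at 0.84 (SE 0.21, adjusted p = 0.0840), Zbp1 at 2.30 (SE 0.52, adjusted p = 0.0842) and the RNA-editing enzyme gene Adar at 0.61 (SE 0.16, adjusted p = 0.113) did not pass. Each of these 3 was called in 4 of 16 alternatives. DESeq2 called all 3, Eif2ak2 was also called with no filter on low counts, and Eif2ak2 and Adar were called without either knockout-labelled DMXAA library. Adar was also called without wild-type DMSO replicate 2, and Zbp1 without wild-type DMXAA replicate 1 or either knockout-labelled DMSO library. Their adjusted p-values over all alternatives ran from 0.0136 to 0.593 for Eif2ak2, 0.000283 to 0.415 for Zbp1 and 0.0409 to 0.625 for Adar.

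Several transcription factors that act on the ISRE were called higher as well, against 1.11% of all genes tested. In wild type Irf1 rose by 1.79 (SE 0.16, adjusted p = 2.47e-05), Irf7 by 1.53 (SE 0.21, adjusted p = 0.00128), Stat2 by 1.30 (SE 0.20, adjusted p = 0.00280) and Irf9 by 0.80 (SE 0.17, adjusted p = 0.0310) on the log2 scale. Irf3, whose product is activated by phosphorylation downstream of STING, had a log2 change of 0.26 (SE 0.16, adjusted p = 0.537). The Irf9 call was lost in 5 of 16 alternatives, among them leaving out wild-type DMSO replicate 1, wild-type DMXAA replicate 2 or either knockout-labelled DMSO library (adjusted p up to 0.526). Without wild-type DMSO replicate 1 Stat2 was no longer called (0.0794).

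The interferon-signalling brakes Socs1 and Usp18 were listed together with Isg15. All 3 genes rose in wild-type islets, against 1.11% of all genes tested. The ubiquitin-like modifier gene Isg15 rose by 5.06 (SE 0.34, adjusted p = 8.69e-06), Socs1, an inhibitor of JAK kinases, by 2.99 (SE 0.40, adjusted p = 0.000788) and Usp18, which removes ISG15 and blocks the interferon receptor, by 1.50 (SE 0.22, adjusted p = 0.00197). Of the 5 genes for interferon beta, its receptor and the receptor's kinases, 1 rose in wild type, against 1.11% of all genes tested. This was Ifnb1, which in the wild type had no counts with DMSO and 536 and 261 with DMXAA, and at most 3 in any knockout-labelled library. In the interaction none of these 5 genes was called, against 0.528% of all genes tested with a lower effect. The lowest log2 value was -10.41, for Ifnb1. Its size depends on counts of at most 3 outside the wild-type DMXAA libraries.

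Other interferon-induced families were set beside OAS. Of 6 IFIT genes, which bind viral RNA ends, 5 rose in wild type with a median log2 change of 5.31 over the 6. Among all genes tested 1.11% were called higher. Of 10 tested guanylate-binding protein genes 9 rose with a median of 2.61, against 6 of 8 and 1.68 for OAS. Oasl1, at 5.28, was near the IFIT median, and the differences between the families were not tested. Protein-coding genes within 100 kb of a member, the other Oas1 genes left out, were listed as well. None of the 9 tested was called in wild type, against 253 of all 17055 genes tested in either direction. At that share 9 genes would seldom hold a call, so the count says little about the loci. The log2 changes of the 9 ran from -0.41 for Gm9936 to 0.68 for 2210016L21Rik, which lies next to Oasl1.

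**Figure D4:**
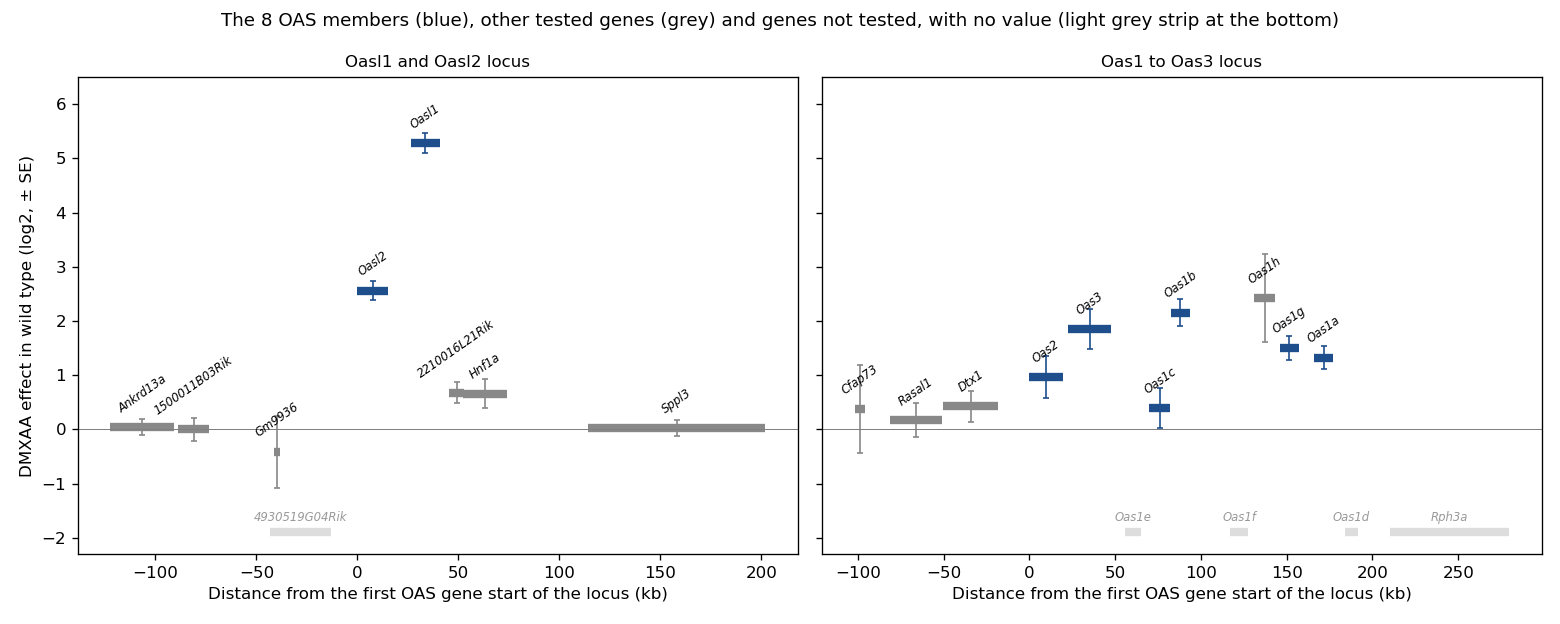
DMXAA effect in wild-type islets (log2 fold change with SE) against the position of each gene, in kb from the first OAS gene start of its locus; bars span the genes. The members (blue) reach 5.28 for Oasl1, while tested genes around the loci (grey) lie between -0.41 and 0.68 apart from Oas1h at 2.42, which did not pass the test; genes in the strip at the bottom were not tested.

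The genes most like each member were taken by Pearson's r of log2(CPM + 1) over the 8 libraries, as a description. These libraries share the 4 groups, so r is set largely by the treated wild-type pair wherever a gene moved. Oasl1 was closest to Cmpk2, a mitochondrial nucleotide kinase gene (r = 0.999), and Oasl2 to Gbp3 (r = 0.995) and Rsad2, which encodes viperin (r = 0.994). Oas3 was closest to Ddx58 (r = 0.994) and Oas1b to Gm8995 (r = 0.996) and Gbp7 (r = 0.994). Oas1a was closest to Ifi203-ps (r = 0.987) and Oas1g to Cyp2d37-ps (r = 0.985) and Slfn9 (r = 0.978). For the 2 members that were not called the nearest genes were Fbxo41 for Oas1c (r = 0.965) and Ppcdc for Oas2 (r = 0.974), whose own log2 changes in wild type were 0.42 and 0.17.

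In bulk islets fewer cells of a type and less RNA per cell cannot be told apart. None of the listed marker genes was called higher in wild-type islets with DMXAA, against 1.11% of all genes tested. At that share a list of such length would seldom hold a call. The 12 macrophage markers, none at 0, summed in wild-type islets to 97.2 to 138 CPM with DMSO and 83.2 to 84.9 CPM with DMXAA, and in knockout-labelled islets to 117 to 120 CPM and 117 to 212 CPM. In the same order the 8 endothelial markers summed to 792 to 1017, 623 to 648, 675 to 750 and 1142 to 1266 CPM. None of them was at 0. With DMXAA 3 of them fell in wild type, as did 64 of all 17055 genes tested. In knockout-labelled islets 2 of them rose, as did 28 of all genes tested. With limma-voom, or with a filter of 10 counts in every library, no gene was called for DMXAA in knockout-labelled islets. The 8 fibroblast and stellate markers, none at 0, summed to 101 to 278, 62.2 to 124, 82.3 to 82.4 and 144 to 176 CPM in that order. In the interaction 4 endothelial markers were called higher, as were 114 of all 17055 genes tested. Between genotypes under DMXAA, 174 of all genes tested were called higher in the knockout-labelled islets. Among them were 5 of the 8 endothelial, 1 of the 12 macrophage and 1 of the 8 fibroblast and stellate markers.

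Exocrine and lymphoid RNA varied between libraries. The 11 acinar markers summed to 1260 to 6144, 1419 to 2635, 1414 to 2108 and 326 to 381 CPM in that order, with at most 2 of them at 0 in a library. The 10 lymphocyte markers summed to 2.36 to 8.42, 2.37 to 3.43, 35.6 to 35.9 and 5.04 to 10.1 CPM, with up to 3 at 0. Of their 7 tested genes 2 were called higher in the knockout-labelled islets under DMSO, as were 31 of all 17055 genes tested. With DMXAA 3 of the 7 fell in knockout-labelled islets, as did 36 of all genes tested. Neither limma-voom nor the filter of 10 counts in every library gave a call there. That filter drops any gene under 10 counts in a library and may have left these genes out, so it does not check their fall. The part of any of these cell types in the OAS differences was not tested.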

How the data were processed

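The deposited files hold raw counts, 1 whole number per gene for each of 8 libraries, and the authors' processing notes name HISAT2, HTSeq and mm10 without versions. The annotation release, the strand setting and the handling of reads with several matches are not stated in the labels. Symbols, positions and exon lengths came from GENCODE M21 of the same build, which holds 54495 of the 54532 identifiers, and start windows from RefSeq (GRCm38.p6).

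Counts were analysed with edgeR 4.0.16 in R 4.3.3 (filterByExpr by group, TMM scaling, quasi-likelihood fit with robust dispersion and legacy=FALSE, 1 coefficient per group, 4 residual degrees of freedom). P-values were adjusted over all 17055 genes tested, and genes with adjusted p under 0.05 were called. The SE is the size of the log2 fold change over the square root of F. CPM used the scaled library sizes, and CPM per kb the union of annotated exons. Replicates differed beyond sampling noise (chi-square per degree of freedom 6.83 to 53.8), so none was a copy. Limits from counts of 0 cover counting error only.

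Members and gene lists were chosen with earlier results of these data known. The text names all 8 members in each of the 5 contrasts, genes of the pathway lists called in wild type or in the interaction, Sting1 and Ifnb1, neighbours within 100 kb and the genes most like each member; some of these genes are not reported here. Listed genes that were not called and are named with values (Pde12, Eif2ak2, Zbp1, Adar, Irf3 and Oas1h) were added after their values were seen. Alternatives were DESeq2 1.42.0, limma-voom (limma 3.58.1), other scaling and filters, the older quasi-likelihood form, a replicate block, fits without each library or on 1 genotype, and another gene length. The code was tested on simulated data.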

Additional observations from a re-analysis of the deposited data

Results flagged for a closer look

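These results stood out because the DMXAA effect differed between the genotype labels by the test of the difference itself (edgeR interaction, adjusted over all genes tested). Values are log2 effects in knockout-labelled minus wild-type islets. Among the OAS members they were -4.94 for Oasl1, -2.51 for Oas1b and -2.10 for Oasl2, and all 3 kept their call in each of the 15 alternatives.

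Among the sensors of double-stranded RNA the values were -2.08 for Ifih1 (adjusted p = 0.000526) and -1.37 for Dhx58 (adjusted p = 0.0329). Among the factors acting on the ISRE they were -2.19 for Irf1 (adjusted p = 0.000246) and -1.62 for Stat2 (adjusted p = 0.0105). The Irf1 groups already differed under DMSO, at 89.3 and 86.0 CPM in knockout-labelled and 38.6 and 50.9 CPM in wild-type islets. With DMXAA, Irf1 was at 65.7 and 67.8 CPM in knockout-labelled islets, below their DMSO libraries. Its value thus holds a lower level there as well as the wild-type rise. Isg15 and Socs1 had -4.46 (adjusted p = 0.00168) and -3.28 (adjusted p = 0.0137).

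Ifih1, Irf1 and Isg15 kept their call in all 15 alternatives. The others lost it in some fits that left out 1 library. Dhx58 did so without either wild-type DMXAA library, either knockout-labelled DMSO library, wild-type DMSO replicate 1 or knockout-labelled DMXAA replicate 1 (adjusted p up to 0.235). Stat2 did so without wild-type DMSO replicate 1 or either knockout-labelled DMSO library (up to 0.0849). Socs1 did so without replicate 1 of any of the 4 groups (up to 0.188).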

How the results depend on the processing

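The count of members called in wild type was 6, and 4 to 6 over the fits that each left out 1 library. In the other contrasts these fits gave 0, 3, 0 and 6 to 7. Of the 15 member results that passed the test, 13 kept call and direction in every alternative; the exceptions were Oas1a and Oas3 in wild type, and Oas3 was also lost with the older quasi-likelihood form (adjusted p = 0.0510) and in a fit on the 4 wild-type libraries (0.0683). Signs changed only among differences that had not passed, and only in fits without 1 library. Their log2 ranges were -0.21 to 0.43 for Oas1c, -0.10 to 0.24 for Oas1g, -0.35 to 0.76 for Oas2 and -0.28 to 0.31 for Oas3 for DMXAA in knockout-labelled islets, -0.61 to 0.067 for Oas1c in the interaction, and -0.24 to 0.084 for Oas1b and -0.46 to 0.070 for Oas1c between genotypes under DMSO; the cause was not tested. Oas3 gave no value under the filter of 10 counts in every library.

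Counts over all genes depended more on single libraries. Without 1 library they ran from 160 to 994 for DMXAA in wild type (main 253; 994 without wild-type DMSO replicate 2), 3 to 129 in knockout-labelled islets (main 64), 87 to 304 in the interaction (main 204), 3 to 240 between genotypes under DMSO (main 38) and 205 to 674 under DMXAA (main 407). In knockout-labelled islets DESeq2 called 154 genes, limma-voom 0, no filter 177, a filter of 10 counts in every library 0, the older form 29 and a fit on those 4 libraries 129. Between genotypes under DMSO the numbers were 143, 18, 159, 16 and 17 for the first 5 of these settings, and DESeq2 called 307 in the interaction.

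Same-numbered libraries did not deviate together (correlations of 0.0572 in wild-type and 0.0552 in knockout-labelled pairs). With the replicate block 6, 0, 3, 0 and 6 members and 259, 61, 217, 56 and 417 genes were called in the 5 contrasts in the order used above. Depth limits Oas3, with 8 to 26 counts outside wild-type DMXAA.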
